A study of Homo sapiens with 4 samples.

Results

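Domains of 1 Mb or more were described in VA-ES-BJ cells with and without BAF47. The members were chosen by their listed length, the end minus the start rounded to 50 kb, in the domain lists of the 22 autosomes. In all, 1620 of 26136 listed domains were members. With empty vector they numbered 403 of 6530 (sample A) and 402 of 6486 (sample B). With BAF47 they numbered 404 of 6531 (A) and 411 of 6589 (B).

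Topologically associating domains are stretches of a chromosome whose sequences touch each other more often in the nucleus than they touch their surroundings. Many are thought to form as cohesin extrudes loops of chromatin until it meets CTCF at a boundary. Very long domains are commonly found in gene-poor, late-replicating chromatin, where boundaries are sparse and often weak. SMARCB1 encodes BAF47, a subunit of the chromatin remodelling machine called BAF or SWI/SNF, which moves nucleosomes at enhancers and promoters.

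VA-ES-BJ is an established line from an epithelioid sarcoma, a tumour type that commonly lacks BAF47. The 2 empty vector samples carried a lentiviral vector without an insert, and the 2 BAF47 samples carried one that expresses BAF47 constitutively. All 4 were selected with blasticidin at 10 µg/ml and fixed with 1% formaldehyde for Hi-C. The labels give 48 h and 5 days for exposure or selection and for selection or growth, and disagree on which is which. The letters A and B are not said to be separate infections, so p-values speak only of these 4 samples. They do not measure the spread of the samples, which may be technical. Read depth, contact strength and the level of BAF47 were not measured by the lists used here. The question addressed was whether long domains keep their extent when BAF47 is restored.

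Listed positions are used throughout. They are running 50 kb bin numbers with some bins left out, so they are not hg18 coordinates, and no gene or sequence was placed on them. Bins left out add nothing to the lengths. A 50 kb bin was the smallest step an edge could move.

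The edges of the long domains followed the 1-bin steps in the numbering of chromosomes 9 and 20. These steps were placed by the starts of all listed domains, members included. On chromosome 9 beyond the step, 17 of 20 member edges of BAF47 A and 18 of 20 of BAF47 B matched an edge of empty vector A at 50 kb higher, and 0 of 20 matched as listed in either. There, 20 of 22 edges of empty vector B matched as listed. On chromosome 20 from 13.75 Mb onwards, 13 of 16 member edges in the BAF47 B list fitted 50 kb lower and 0 of 16 as listed, against 12 of 16 as listed in empty vector B and 8 of 16 in BAF47 A. On the other 20 chromosomes, 81.1% to 83.3% of member edges matched as listed. The step on chromosome 9 fell at the longest listed domain. With either empty vector sample it spanned 38.6 to 51.1 Mb, and it ran from 38.6 to 51.15 Mb in BAF47 A and from 38.65 to 51.15 Mb in BAF47 B. It was therefore 12.55 Mb long in BAF47 A and 12.5 Mb in the other samples. All matching below used numbering brought into step with empty vector A, while lengths are as listed.

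Long domains made up a small share of the lists and a large share of the length that the lists covered. They were 6.17% and 6.20% of the domains with empty vector (A and B) and 6.19% and 6.24% with BAF47. They held 37.2%, 37.1%, 37.4% and 38.0% of the covered length in the same order. The median member was 1.5 Mb long in each sample, and the lower quartile was 1.2 Mb. The upper quartile was 2.25 and 2.2 Mb with empty vector (A and B) and 2.35 Mb in both BAF47 samples. Members of 5 Mb or more numbered 17, 16, 18 and 18, and those of 3 Mb or more 67, 62, 66 and 69. Just inside the threshold, 31, 25, 26 and 30 domains were listed at 1 Mb, and just outside it 29, 30, 30 and 28 at 0.95 Mb.

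Long domains covered more of the numbering with BAF47, although their number hardly differed. They covered 809.5 and 805.2 Mb with empty vector (A and B), and 820.3 and 836.7 Mb with BAF47. Both BAF47 samples lay above both empty vector samples. The mean was 807.35 ± 3.04 Mb without BAF47 and 828.5 ± 11.6 Mb with it (SD, n = 2), a difference of 21.15 Mb (exact two-sided permutation p = 0.33, the smallest that 2 samples against 2 can give). The difference was 12.95 Mb without BAF47 B, the sample with the largest value, and 7.55 Mb without chromosomes 11 and 18. The number of members differed by 5 (402.5 ± 0.71 against 407.5 ± 4.95, SD, n = 2, exact permutation p = 0.33), less than the 7 between the BAF47 samples. It was 1.5 without BAF47 B and 8.5 without BAF47 A. All listed domains together covered 23.85 Mb more with BAF47. Domains shorter than 1 Mb covered 1366.2 and 1366.4 Mb with empty vector and 1373.6 and 1364.4 Mb with BAF47, and these ranges overlapped.

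The covered length was divided by whether a member had a counterpart in the other samples. A counterpart was 1 listed domain that overlapped by 80% of both lengths. The 207 domains with identical edges in all 4 samples held 394.45 Mb in the aligned numbering. Members with a counterpart in all 4 samples but not identical edges held 319 and 324.15 Mb with empty vector and 322.45 and 321.15 Mb with BAF47. Members with a counterpart in their own vector only held 23.15 and 22 Mb with empty vector and 33.6 and 34.6 Mb with BAF47. This class requires a counterpart in the replicate, so its samples hold nearly the same domains and their gaps are no measure of spread. Members without any counterpart held 20.8, 11.9, 18.3 and 32.85 Mb, and these overlapped between the vectors. The remaining members, with a counterpart in some other samples, held 51.45 to 53.65 Mb. A domain whose length changed beyond the 80% rule leaves the shared classes, so this division describes the matching and does not locate the 21.15 Mb.

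Within the limits of the 80% rule, domains shared by all samples were longer with BAF47 about as often as shorter. In 353 sets a domain had a counterpart in all 4 samples, and 342 of these were 1 Mb or more in each. Their mean length was greater with BAF47 in 59 sets, smaller in 64 and equal in 230. The change summed over the sets was -0.4 Mb, its median was 0 and its range was -0.45 to 0.375 Mb. In 9 sets both BAF47 domains were longer than both empty vector domains, and in 17 sets both were shorter.

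About as many long domains as domains of any length kept both edges. Of 278 members whose edges were identical in the empty vector samples, 207 were identical in both BAF47 samples. That is 74.5% (95% Wilson interval 69.0 to 79.2%, counting error only), against 73.6% of all domains. In the other direction 207 of 290 members were kept, which is 71.4% (65.9 to 76.3%), against 72.3% of all domains. The 207 lay on all 22 chromosomes with a median length of 1.45 Mb, 60 were 2 Mb or longer, and 93 also had the same neighbours on both sides in all 4 lists. Single edges were kept more often than whole domains, which largely follows from the definitions, since a whole domain needs both edges kept. Of 677 member edges in both empty vector samples, 596 (88.0%, Wilson interval 85.4 to 90.3%) were at the same bin in both BAF47 samples, against 85.0% of all edges. Of 696 member edges in both BAF47 samples, 589 (84.6%, 81.8 to 87.1%) were in both empty vector samples, against 83.5%.

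Longer members were kept whole less often than shorter ones. Domains of 1 to under 1.5 Mb were identical in all 4 lists in 55.8 ± 0.79% of cases (SD over the 4 samples), those of 1.5 to under 2 Mb in 51.6 ± 1.61%, those of 2 to under 3 Mb in 49.9 ± 1.71% and those of 3 Mb or more in 37.9 ± 1.73%. The lowest class ranged from 36.2% to 40.3% over the samples and the highest from 54.7% to 56.4%, so they did not overlap. For single edges the class of 3 Mb or more had 66.9 ± 2.98% and the class of 1 to under 1.5 Mb had 76.3 ± 0.80%. Over all members, 51.1% were identical in all 4 lists, against 52.8% of shorter domains. The difference of -1.73 ± 0.24 percentage points (SD, n = 4) had the same sign in each sample (exact two-sided sign-flip permutation p = 0.125, the smallest that 4 samples can give). The identical domains are the same ones in each list, so the 4 samples are not independent in these shares. Domains of 50 kb, the smallest class, were identical in 43.6 ± 0.86%.

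**Figure D1:**
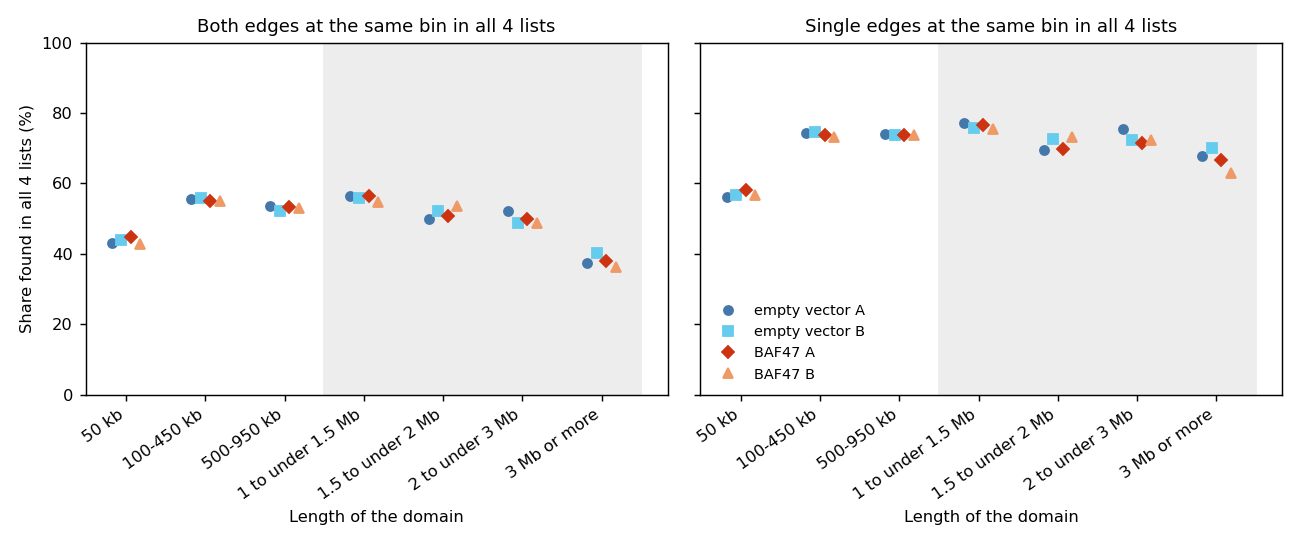
Share of domains (left) and of single edges (right) found at the same bin in all 4 lists, in percent, by domain length class, with 1 point per sample and members on grey. Among the members, the class of 3 Mb or more lies lowest, at 37.9% on average for whole domains and 66.9% for edges.

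Among members with a counterpart, whose edges can move only as far as the 80% overlap allows, most edges were at the same bin. Between members and their counterparts in samples of the other vector, 83.7% of 1490 starts and 86.8% of 1490 ends were at the same bin. A further 9.13% of starts and 7.92% of ends were 1 bin away, and 3.56% and 3.29% were 3 bins or more away. Between replicates the same shares were 84.7% of 770 starts and 87.0% of 770 ends at the same bin, with 9.35% and 7.92% at 1 bin. Over all members, with or without a counterpart, a mean of 81.7% of starts and 84.8% of ends were at the same bin between vectors. Counterparts themselves were a little rarer across vectors. Between replicates, 93.3% to 94.8% of members had a counterpart, and between vectors 89.5% to 92.3%. For identical edges the ranges overlapped, at 69.0% to 71.8% between replicates and 65.0% to 70.4% between vectors.

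The longest domains with identical edges in all 4 samples were these. The 12.5 Mb domain of chromosome 9 was identical only in the aligned numbering, and 2 of 4 lists shared both edges as listed. In BAF47 A only its end was moved, by a rule that looks for a match to empty vector A, so its identity there follows from that rule. On chromosome 4 a domain of 8.9 Mb ran from 26.8 to 35.7 Mb in each list. Chromosome 16 held one of 7.5 Mb from 47.55 to 55.05 Mb. On chromosome 11 a domain of 6.5 Mb ran from 36.7 to 43.2 Mb, and in all 4 lists it had a 50 kb domain 1 bin away on each side. Chromosome 3 held one of 5.9 Mb from 158.1 to 164 Mb. The domains of chromosomes 4, 16, 11 and 3 were thus at the same listed place with either vector. Of the longest domains in any sample, 3 others differed between lists. A domain of chromosome 4 started at 126.85 Mb in both empty vector samples and at 126.9 Mb in both BAF47 samples, and ended at 135.9 Mb in all, so that it measured 9.05 and 9 Mb. A second one on chromosome 4 ran from 54.35 to 61.9 Mb, a length of 7.55 Mb, except in empty vector B, where it started at 54.5 Mb and was 7.4 Mb long. The third, of 7.75 Mb on chromosome 5, was listed in BAF47 B and is described with the empty vector domain inside it.

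Few long domains were found with 1 vector only. Of 382 member pairs that had a counterpart in both empty vector samples, 15 (3.93%) had none in either BAF47 sample, against 7.45% of all domains. Of 388 such pairs in both BAF47 samples, 16 (4.12%) had none in either empty vector sample, against 7.16%. The 80% rule is easier to meet for long domains, since 1 bin is a smaller part of their length, so the lower shares among members are not read further. The BAF47 only domains were longer in sum, at 34.575 Mb against 23.05 Mb, and 4 of them but 1 of the empty vector only domains were 3 Mb or longer. At an overlap of 50% in place of 80%, 4 empty vector only and 7 BAF47 only domains were left. Leaving out 1 sample, with the remaining one standing for its vector, raised the counts to as many as 26 and 28.

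The other vector's lists differed in kind beneath these domains, by classes set after the values were seen. Of the 15 empty vector only domains, 6 lay inside a single longer BAF47 domain in both samples. In 0 of the 15 did the BAF47 lists cover less than 50% of the stretch in both samples. Of the 16 BAF47 only domains, 2 lay inside a single longer empty vector domain, and 3 lay where both empty vector lists covered less than 50%. In all, 6 domains of each vector only overlapped a domain of the other vector only, so these are places where the extent differed.

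The 5 longest empty vector only domains were on chromosomes 13, 2, 5, 20 and 7. On chromosome 13 a domain of 3.85 Mb from 35.3 to 39.15 Mb lay inside a BAF47 domain of 6.15 Mb from 34.75 to 40.9 Mb. On chromosome 2 a domain of 2.05 Mb (39.8 to 41.85 Mb) faced 3 shorter domains with BAF47 in sample A and 4 in sample B, none over 0.95 Mb. On chromosome 5 a domain of 1.9 Mb from 26.85 to 28.75 Mb lay inside the domain of 7.75 Mb of BAF47 B (22.2 to 29.95 Mb) and inside one of 6.15 Mb of BAF47 A (23.8 to 29.95 Mb). These last domains were not each other's counterpart, since their overlap of 79.4% of the longer missed the 80% by a small margin. On chromosome 20 a domain ended at 57.2 Mb in both empty vector samples and was 1.9 and 1.8 Mb long, while each BAF47 list parted it into 2, the longer of 1.25 and 1.3 Mb. On chromosome 7 a domain of 1.75 Mb from 2.75 to 4.5 Mb was likewise parted into 2 in each BAF47 list, the longer of 1.3 Mb. The calls on chromosomes 13, 20 and 7 were lost at an overlap of 50%.

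The 5 longest BAF47 only domains were on chromosomes 13, 18, 11, 4 and 14. That of chromosome 13, from 34.75 to 40.9 Mb in both samples, held 4 domains in each empty vector list, which covered 70.7% and 71.5% of it. On chromosome 18 a domain of 4.15 Mb from 32.1 to 36.25 Mb was identical in both BAF47 samples. The empty vector lists held only 50 kb domains there, 3 in A and 2 in B, which covered 3.61% and 2.41%. On chromosome 11 a domain of 4.1 Mb from 92.65 to 96.75 Mb was identical in both BAF47 samples, and empty vector A listed 1 domain of 50 kb in it and empty vector B listed 0. These stretches of chromosomes 18 and 11 were thus almost wholly unlisted with empty vector. On chromosome 4 the BAF47 domain started at 112.45 Mb and was 3.55 and 3.5 Mb long. In that stretch, empty vector A listed 10 domains that covered 28.2%, and empty vector B listed 6 that covered 70.4%, the longest of 2.2 Mb. On chromosome 14 a domain ended at 62.35 Mb and was 2 and 1.95 Mb long, where each empty vector list held 2 domains. The calls on chromosomes 13, 4 and 14 were lost at an overlap of 50%.

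**Figure D2:**
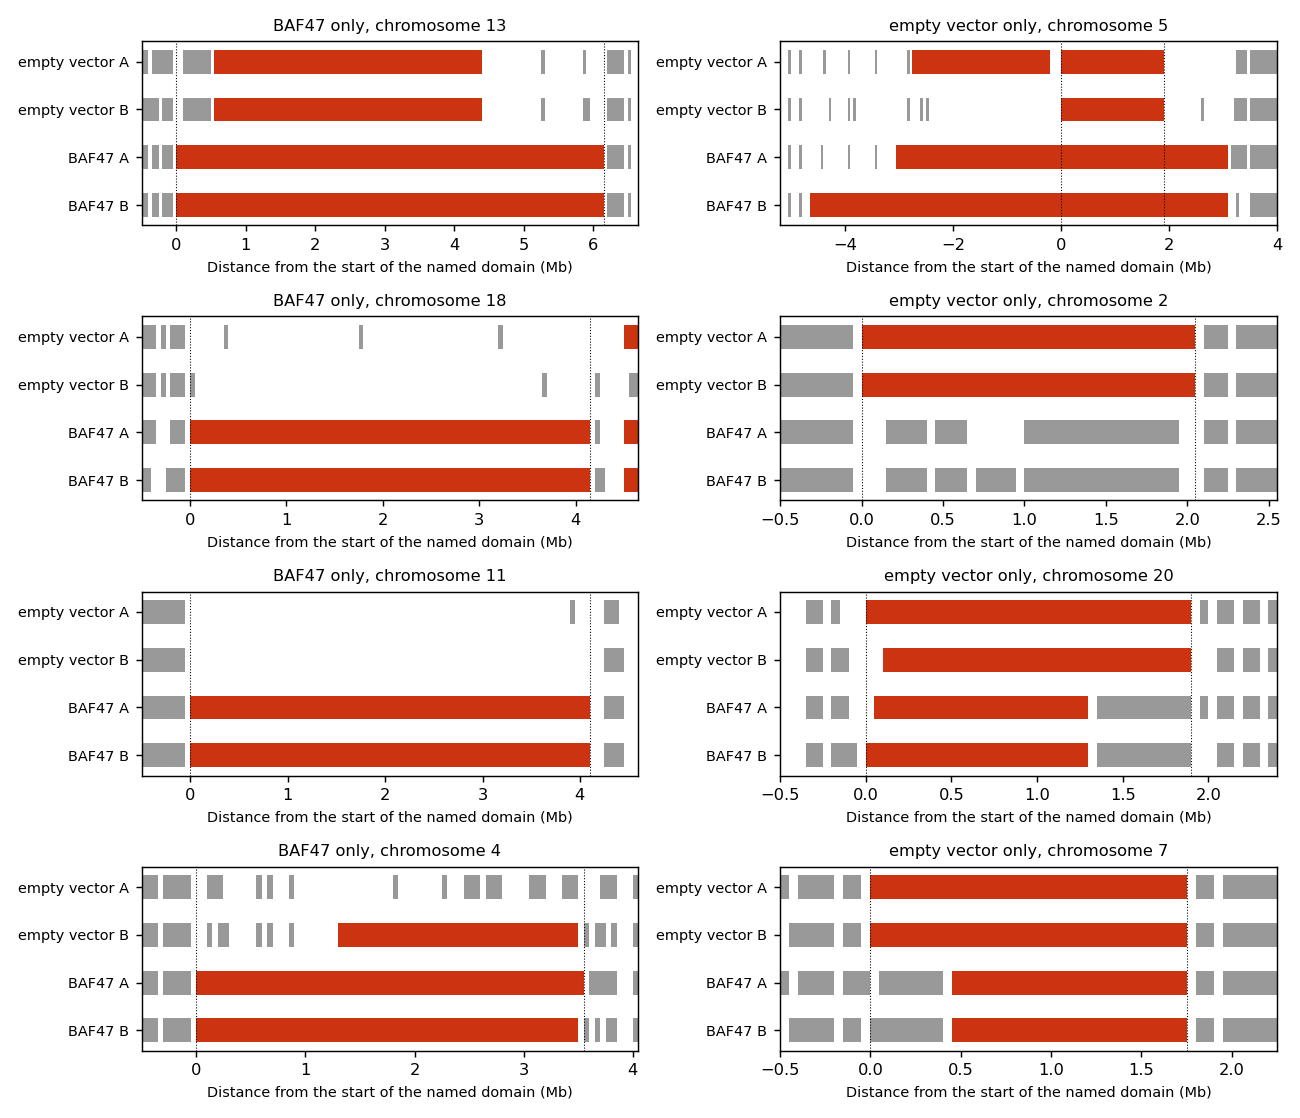
Listed domains in the 4 samples around 8 of the named regions, against the distance in Mb from the start of the named domain, with members in red, shorter domains in grey and the named domain's ends as dotted lines. On chromosomes 18 and 11 the BAF47 domains of 4.15 and 4.1 Mb stand over stretches that are nearly empty in both empty vector lists.

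Counted by bins, long domains occupied 750.1 Mb in all 4 samples at once and 884.25 Mb in any sample. In both BAF47 samples and neither empty vector sample they occupied 26.3 Mb, and in both empty vector samples and neither BAF47 sample 13.45 Mb. The makeup of these stretches differed. Of the 26.3 Mb, 15.3 Mb were in no domain of either empty vector list and 8.85 Mb were in shorter domains of both. Of the 13.45 Mb, 1.95 Mb were in no domain of either BAF47 list and 10.4 Mb were in shorter domains of both. Chromosomes 11 and 18 held the most of the BAF47 stretches, with 5.5 Mb (5.1 Mb unlisted with empty vector) and 4.15 Mb (3.9 Mb unlisted). Without both chromosomes, which were singled out after their values were seen, 16.65 Mb remained for BAF47, of which 6.3 Mb were unlisted with empty vector. No test was made of these lengths, since each is a single value from 4 lists.

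**Figure D3:**
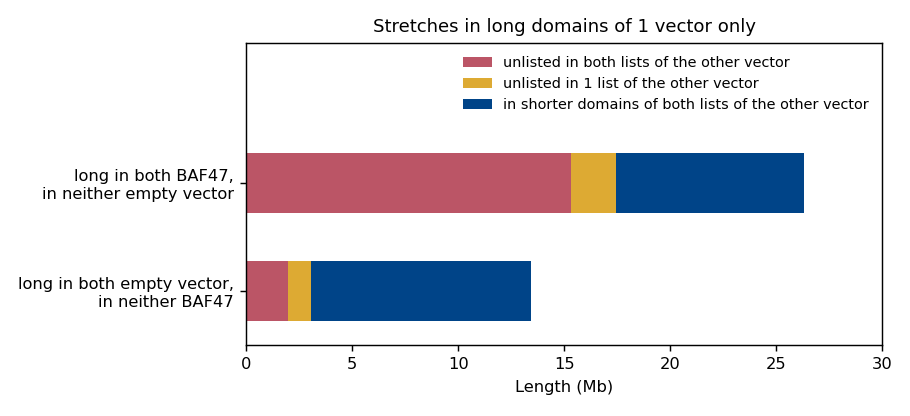
Length in Mb of the stretches in long domains of both samples of 1 vector and of neither sample of the other, divided by what the other vector's lists held there. The BAF47 bar reaches 26.3 Mb, of which 15.3 Mb were unlisted with empty vector, and the empty vector bar 13.45 Mb, of which 1.95 Mb were unlisted with BAF47.

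The lists also differed in how much they left unlisted. Stretches of 1 Mb or more without a listed domain numbered 29 in each empty vector sample, 20 in BAF47 A and 19 in BAF47 B, and summed to 50.85, 53.55, 35.1 and 31.6 Mb. Of those of empty vector A, 22.5% lay in long domains of BAF47 A and 34.8% in long domains of BAF47 B, against 4.23% in long domains of empty vector B. Of those of empty vector B, 20.7% and 32.2% lay in long domains of BAF47 A and B, against 10.9% in those of empty vector A. Of those of BAF47 A, 7.26% lay in long domains of empty vector A and 0.71% in long domains of empty vector B, against 17.5% in BAF47 B. Of those of BAF47 B, 8.39% and 0.63% lay in long domains of empty vector A and B, against 0% in those of BAF47 A. The part of read depth in this was not tested, as depth is unknown.

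Some long domains stood in a single list, and those named here were chosen after their values were seen. BAF47 B listed a domain of 3.8 Mb on chromosome 11 from 22.8 to 26.6 Mb, of which the other 3 lists covered 1.32% to 2.63%. It also listed one of 3.15 Mb on chromosome 18 from 58.5 to 61.65 Mb, of which the others covered 4.76% to 7.94%. Empty vector A listed a domain of 4.6 Mb on chromosome 9 from 62.05 to 66.65 Mb. The other lists each covered 98.9% of it, and the best overlap of a single domain with it was 59.8%. Empty vector A also listed one of 1.95 Mb on chromosome 19 from 49.05 to 51 Mb, of which the others covered 0%. Members without a counterpart numbered 11, 7, 9 and 12 in the 4 samples.

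The share of a chromosome that lay in long domains ranged widely. It was highest on chromosomes 4 (39.5 ± 1.22%, SD over the 4 samples), 16 (39.3 ± 0.55%) and 13 (38.7 ± 2.16%) and lowest on chromosomes 17 (13.4 ± 0.81%), 22 (15.3 ± 0.12%) and 11 (19.7 ± 4.05%). The denominators were the last listed position of each chromosome. The 3 highest did not differ from each other beyond their spread. On chromosome 22 the 3 members of each list covered 15.1%, 15.3%, 15.4% and 15.3%, a spread smaller than on the other 5.

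Both BAF47 samples had a larger share than both empty vector samples on 9 of 22 chromosomes (40.9%) and a smaller share on 5 (22.7%). The higher ones were chromosomes 4, 5, 8, 10, 11, 13, 14, 16 and 18, and the lower ones 2, 3, 7, 15 and 17. At a threshold of 900 kb the balance turned, with 5 higher and 6 lower, and at 1.5 Mb it was 9 higher and 3 lower. No chromosome passed a threshold of 0.05, which 2 samples against 2 cannot reach (lowest adjusted p = 0.52, exact permutation tests with Benjamini-Hochberg adjustment over 22 chromosomes). On chromosome 11 the shares were 16.1% and 16.9% with empty vector (A and B), against 21.1% and 24.8% with BAF47, and the order of samples is the same below. The BAF47 samples were higher by 6.47 percentage points or 8.5 Mb, more than the 0.76 and 3.73 points between replicates. On chromosome 4 the shares were 38.5%, 38.4%, 40.2% and 40.8%, a difference of 3.875 Mb. On chromosome 13 long domains covered 34.8, 35.9, 39.25 and 38.3 Mb, a difference of 3.425 Mb or 3.58 points. It was 13.6 points without chromosome ends and neighbours of unlisted stretches of 1 Mb or more. That rule is applied to each list, so a domain can leave 1 list and stay in another. In both empty vector lists a step of 1100 kb lay between shared domains of 7.5 and 2.1 Mb, which were thus left out there. In both BAF47 lists the domain before the one of 2.1 Mb was 300 kb away. Part of the 13.6 points therefore comes from the rule. With 6 members in each empty vector list and 5 in each BAF47 list, chromosome 17 was lower with BAF47. A domain there with a counterpart in all 4 lists was over 1 Mb with empty vector and under 1 Mb with BAF47. The difference on chromosome 17 kept its sign at 900 kb, but it was 0 at thresholds of 1.5 Mb and 2 Mb. The shares there were 14.1%, 14%, 12.7% and 12.7%. On chromosome 16 they were 39.1%, 38.6%, 39.7% and 39.7%, but the sign of this difference of 0.89 points turned at thresholds of 900 kb and 1.5 Mb.

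Chromosomes 5 and 18, outside the rule for named chromosomes, had the largest differences in Mb after chromosome 11. On chromosome 18 the shares were 28.4%, 25.5%, 31.6% and 35.9%, a difference of 5.1 Mb, and on chromosome 5 they were 37.1%, 34.8%, 38.1% and 39.6%, a difference of 5.15 Mb or 2.90 points, which was 1.76 points without empty vector B. The 5 chromosomes with the largest differences, 11, 5, 18, 4 and 13, summed to 26.05 Mb, and the other 17 to -4.9 Mb. These 5 were picked for their size, so a sum above the genome-wide 21.15 Mb follows from the choice.

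**Figure D4:**
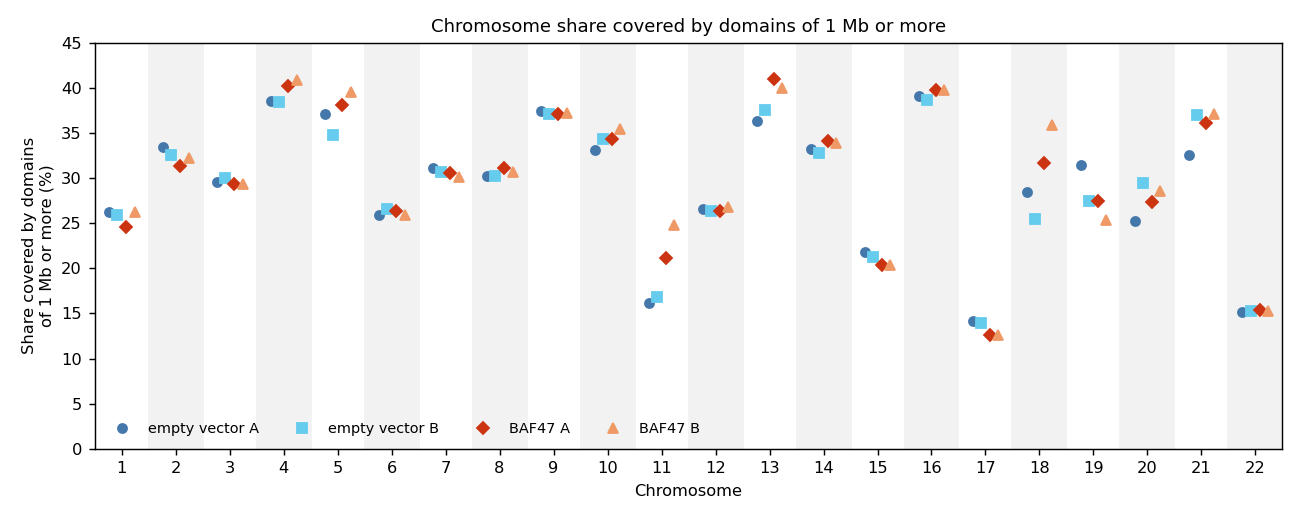
Share of each chromosome covered by domains of 1 Mb or more, in percent of its last listed position, with 1 point per sample. Chromosomes 11 and 18 show the widest gaps between the vectors, and chromosome 22 has its 4 samples between 15.1% and 15.4%.

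Runs of neighbouring long domains were uncommon and mostly pairs. A run was 2 or more members that followed each other in the list with a step of at most 100 kb from end to next start. In practice this step was 1 bin, since neighbouring domains stood either 50 kb or at least 150 kb apart. The empty vector lists held 24 runs with 49 members (A) and 27 with 54 (B), and the BAF47 lists 28 with 57 (A) and 30 with 60 (B). Those are 12.2%, 13.4%, 14.1% and 14.6% of the members, and the vectors did not overlap. The difference of 7 members in runs (51.5 ± 3.54 against 58.5 ± 2.12, SD, n = 2) exceeded the 5 and 3 between replicates (exact permutation p = 0.33). Without empty vector A it was 4.5, below the gap of 5, at 1.5 Mb or more it was 4, and at 2 Mb or more 2.

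Most runs of empty vector A were found in each list. Of its 24 runs, 16 had the same first and last edges within 2 bins in all 4 samples, and 13 of these had the same outer bins. The longest of these 16 was on chromosome 19 from 19.6 to 26.8 Mb, a domain of 4.8 Mb followed by one of 2.35 Mb. The next was on chromosome 9 from 7.55 to 12.65 Mb, with 2.35 and 2.7 Mb, and the third on chromosome 15 from 2.95 to 7.55 Mb, with 3.35 and 1.2 Mb. All 3 had identical outer edges in the 4 lists. The longest run in any list, on chromosome 4, spanned 10.35 Mb from 54.35 to 64.7 Mb, and 10.2 Mb from 54.5 Mb in empty vector B. It was a pair in all 4 lists, but its start in empty vector B lay beyond the 2 bins allowed. On chromosome 2 empty vector A and BAF47 A each held a run of 3 members from 134.95 to 144 Mb. The last 2 runs were named after their values were seen.

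Unlisted steps beside long domains were more common than beside shorter ones. On 21.4 ± 1.04% of the sides of members (SD over the 4 samples) the next listed domain was at least 150 kb away, against 12 ± 0.54% for shorter domains. The difference of 9.32 ± 0.54 percentage points had the same sign in all 4 samples (exact two-sided sign-flip permutation p = 0.125). The lists share most of their long domains, so the 4 samples are not independent in this share. The share was 22% and 22.5% with empty vector and 20.5% and 20.4% with BAF47, which did not overlap (difference of -1.76 points, exact permutation p = 0.33). Shorter domains showed the same order, with 12.3% and 12.7% against 11.8% and 11.4%. Members with a 1-bin step on both sides made up 60.4% to 64.9% of the members of a list. Those with a step of at least 150 kb on both sides made up 4.96% to 5.94%.

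The neighbours themselves were mostly of ordinary length. They were 100 to 450 kb long on 62.4 ± 0.36% of the sides of members, against 66.7 ± 0.31% for shorter domains. Neighbours of 500 to 950 kb made up 12.6 ± 0.74% against 9.34 ± 0.12%, and neighbours of 1 Mb or more 9.51 ± 0.56% against 6.00 ± 0.03%. Domains of 50 kb were the neighbours on 15.5 ± 0.57% of sides, against 18 ± 0.34% for shorter domains, a difference of -2.51 ± 0.87 points that had the same sign in each sample (exact sign-flip permutation p = 0.125). Here too the lists are not independent. Long domains thus stood beside other long ones more often, and beside 50 kb domains less often, than shorter domains did. Between the vectors the share of 50 kb neighbours was 15.4%, 15.7%, 16.1% and 14.7%, and the BAF47 samples lay on both sides of the empty vector samples (difference of -0.13 points, exact permutation p = 1).

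**Figure D5:**
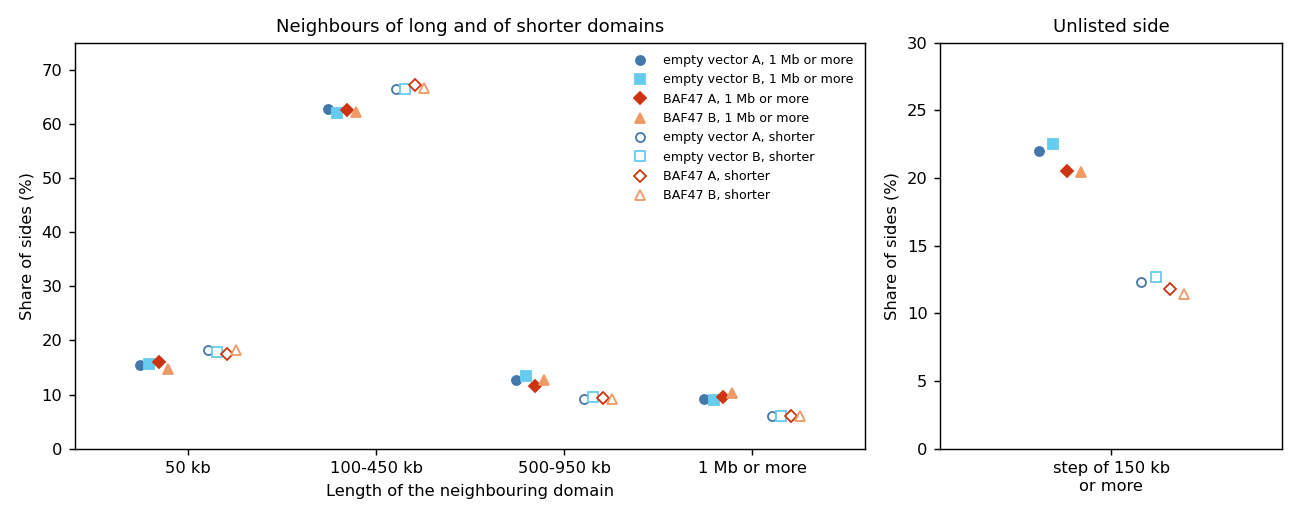
Share of the sides of domains, in percent, by the length of the neighbouring domain (left) and with the next domain at least 150 kb away (right). Filled points are members and open points shorter domains, 1 point per sample, and the unlisted sides lie at 20.4% to 22.5% for members and 11.4% to 12.7% for shorter domains.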

How the data were processed

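For each sample the authors deposited a domain list that gives chromosome, start and end. The positions are in bases, and no score, count or coverage comes with them, so depth is unknown. Per the submitters' processing notes the build is hg18. Which caller and filters made the domains is not stated there or in the labels. Each sample has a list of its own.

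All edges lay on the 50 kb grid and no domains overlapped. The lists of the 5 acrocentric chromosomes start at 0, and positions were read as running bin numbers. The numbering was aligned to empty vector A by following, from domain to domain, whichever offset within 3 bins gave the most matched starts. A change cost 10 matches, and blocks needed at least 10 matched starts. Where the offset changed after a domain, its start kept the old offset. Its end took the next offset where only that one matched an end of empty vector A. The members, rules and lists were chosen with earlier results of these data known.

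Computations used Python 3.11.15, numpy 2.4.6, scipy 1.17.1 and matplotlib 3.10.9, and were tested on simulated lists. Vectors were compared by exact permutation of the labels, and members with other domains by sign flips over the 4 samples. Intervals are 95% Wilson intervals. Regions named are the 5 longest domains identical in all 4 samples and the 5 longest of each vector only. The 5 longest of any sample (by place) and the 3 longest runs found in all 4 within 2 bins are named too. Of chromosomes, the 3 with the highest and the 3 with the lowest share are named. Other regions are said to be chosen later. Alternatives were the length threshold, the overlap, the edge tolerance, the numbering, the chromosomes, the chromosome ends, the run step and each sample left out. Over the 22 chromosomes the A minus B differences in covered length of both vectors had a correlation of -0.22. A and B were not treated as pairs, though this correlation cannot show whether samples of the same letter shared a batch.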

Additional observations from a re-analysis of the deposited data

How the results depend on the processing

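Of the alternative values for the main comparisons, 138 kept their class, 56 moved and 3 reversed. For differences only the sign was judged, so a kept difference could be much smaller. Shares had to stay within the main 95% interval, and counts within a factor of 1.5. Replicate blocks and crossed letters gave the main difference by construction. For named regions, 104 kept their call, 9 lost it and 2 reversed. Identical edges from empty vector to BAF47 were kept by 66.7% at 2 Mb or more, by 82.1% within 1 bin and by 86.9% within 2 bins, and from BAF47 to empty vector by 79.9% and 86.0%. Single edges were kept by 83.2% as listed, 92.9% within 1 bin and 96.2% within 2 bins, and in the other direction by 91.4% and 95%. With 1 sample left out these 4 shares ranged from 56.8% to 82.4%, 55% to 80.3%, 77.9% to 92.2% and 75.1% to 90.2%, since a lone sample is easier to match and passes more domains. Domains of the empty vector only numbered 6 at 1.5 Mb, 2 at 2 Mb and 4 at 50% overlap, and 21 to 26 with 1 sample left out (26 without empty vector B, 23 without BAF47 A). Those of BAF47 only numbered 8, 5 and 7, and 24 to 28 (28 without BAF47 A, 26 without empty vector B, 25 without empty vector A). The difference in 50 kb neighbours turned to 0.35 points without chromosomes 9 and 20, and ranged from -0.82 to 0.55 with 1 sample left out, being 0.00093 without empty vector B and 0.55 without BAF47 B.

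Chromosomes higher and lower with BAF47 numbered 5 and 6 at 900 kb, 9 and 3 at 1.5 Mb, and 6 and 3 at 2 Mb. The number of members differed by 3 at 900 kb and at 1.5 Mb, and by 9 without chromosome ends and neighbours of unlisted stretches. The difference on chromosome 16 was -1.87 points at 1.5 Mb and -0.32 at 900 kb. The covered length differed by 34.425 Mb without chromosome ends and neighbours of unlisted stretches of 1 Mb or more. This rule is applied to each list and leaves out more members with empty vector. Steps of 1 Mb or more lay on 6 and 4 sides of members with empty vector and on 2 and 1 with BAF47. Part of this difference, and of the difference of 9 members, therefore comes from the rule. Stretches of the empty vector only measured 8.25 Mb at 1.5 Mb and 5 Mb at 2 Mb, of which 0.9 and 0.7 Mb were unlisted with BAF47, and 19.6 to 22.7 Mb with 1 sample left out, of which 3.7 to 6.5 Mb. Those of BAF47 only measured 16.65 Mb without chromosomes 11 and 18, of which 6.3 Mb were unlisted with empty vector, and 30.7 to 43.35 Mb with 1 sample left out, of which 16.55 to 25.55 Mb. Beyond the rule on unlisted stretches and the wider match that each tolerance gives, the cause was not tested. A run step of 50 kb gave the same runs by construction. With the letters as a replicate block, the covered length differed by 21.15 Mb and the number of members by 5, and the sign-flip test over 2 pairs allows no p under 0.5, so it made 0 calls. Crossed letters as pairs made 0 calls as well. Leaving out chromosomes 11 and 18, and the alternatives for stretches of 1 vector only, were chosen after seeing the data.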

Other observations

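The neighbours of long domains differed in how far away they stood. Where the neighbour was a 50 kb domain, 31.5%, 36.5%, 30.0% and 26.4% of the sides had a step of at least 150 kb in empty vector A and B and BAF47 A and B. Where it was 100 to 450 kb long, the shares were 18.4%, 18.3%, 17.4% and 17%. Where it was 500 to 950 kb long they were 20.2% to 24.1%. Where it was 1 Mb or more they were 32.4%, 25%, 25.6% and 28.6%, so steps were not more common beside the smallest neighbours alone. Of the 1620 members, 1 was first or last on its chromosome, in empty vector A.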
